A study of Homo sapiens with 12 samples.

Results

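The comparison described here sets cells given any of 3 hepatoprotective agents against mock-treated cells, and asks whether a difference was shared by the agents or carried by 1 of them. All 12 arrays of the series enter it. They comprise 9 arrays of treated cells and 3 of mock control cells, chosen by the agent named in the labels, and the compared value is the mean of the 3 agent means minus the control mean. The treated arrays are 3 each from cells given glycyrrhizin, silymarin or ursodeoxycholic acid at 25 µM. All cells are labelled HepG2, an established line from a human hepatocellular carcinoma, grown in DMEM with fetal bovine serum. Total RNA was labelled with Cy5 and hybridized to oligonucleotide arrays. The sources used here do not say what the mock cells received or how long treatment lasted. They also do not say if replicate arrays stand for separate cultures, so the spread behind the p-values below may be technical alone.

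Glycyrrhizin, a saponin from liquorice, has a metabolite that inhibits the enzyme that inactivates cortisol. Silymarin is a mixture of flavonolignans from milk thistle, studied as an antioxidant, and ursodeoxycholic acid is a hydrophilic bile acid given in cholestatic liver disease. The title of the study names a hepatoprotective pathway common to the agents. A change common to agents of such different chemistry would be measured as a similar difference from control with each of them. Because the agents were compared with the same 3 control arrays, a deviation of those arrays enters every agent's difference alike. A common direction is for that reason no independent support.

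A value here is the log2 of the deposited intensity, and a gene is represented by its brightest probe. Of 13881 genes measured, 3904 (28.1%) had a mean log2 intensity over 8 and are called bright. The median gene lay at 6.70. Genes next to that limit were TAF5L at 7.9997 and ARHGAP4 at 7.9995 below it, and DNPH1 at 8.0001 and RABEPK at 8.0009 above it. Bright genes were measured more evenly, with a median residual SD of 0.24 log2 units against 0.51 in the other genes. The values carry no detection call, so dim probes may hold background alone. Array medians of the linear intensity lay between 85.8 and 86.6. Precision is limited by having 3 arrays in each group.

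Markers of the labelled cell type were mostly not bright. Among 17 measured genes of hepatocyte identity 1 was over 8, the apolipoprotein APOB at 8.89, followed by the thyroid hormone carrier transthyretin TTR at 7.77, APOA1 at 7.66 and the transcription factors FOXA1 at 7.63 and FOXA2 at 7.03. The fetal serum protein AFP lay at 6.89 and transferrin TF at 6.40. Another 6 listed genes, albumin ALB and HNF4A among them, were not measured here. By contrast, 10 of 16 neuroblast and sympathetic neuron markers were over 8, among them tyrosine hydroxylase TH at 12.49, the tubulin-binding STMN2 at 11.08 and the transcription factor ISL1 at 10.15. TH and ISL1 were chosen after their values were seen, and the dimmest of the 16 lay at 3.28. In the other marker lists 2 of 7 leukocyte, 2 of 11 endothelial and cholangiocyte and 2 of 10 fibroblast and stellate cell genes were bright, vimentin VIM (15.53) the brightest. Brightness depends on the probe as well as the transcript, so these counts do not rank the genes. The log2 of the summed intensity of the hepatocyte markers was 11.12 to 11.26 in control and 10.98 to 11.38 on treated arrays. For the neuroblast markers these ranges were 13.54 to 13.70 and 13.39 to 14.03. Fewer cells of a type and less RNA per cell cannot be told apart in such bulk samples.

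After Benjamini-Hochberg adjustment of limma's p-values, 0 of 13881 genes (0% called) passed 0.05 for the mean of the agents, and 0 for each agent alone. At an unadjusted p under 0.05 the mean of the agents held 352 higher genes (2.54%) and 239 lower ones (1.72%), 591 (4.26%) together. Chance would give a mean of 694.1. For each agent alone the same threshold held 2.32% higher and 3.05% lower with glycyrrhizin, 2.83% and 2.06% with silymarin, and 2.64% and 2.65% with ursodeoxycholic acid. Among bright genes 47 were higher and 59 lower, 106 in all (2.72%), where a share of 0.05 would be 195.2. The estimate of the spread draws on all probes, while bright genes varied less (median residual SD 0.24 against 0.51 in the others). Their p-values may therefore run high, so the lower count does not show that differences were absent. The SD of the difference over bright genes was 0.199 for the mean of the agents, and 0.305, 0.277 and 0.290 for glycyrrhizin, silymarin and ursodeoxycholic acid. Of the bright genes 1, SYNE2, differed at least 2-fold in the mean, against 38, 15 and 26 with the 3 agents in that order. Differences of bright genes were thus smaller in the mean, which averages 9 arrays, than with any agent.

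**Figure D1:**
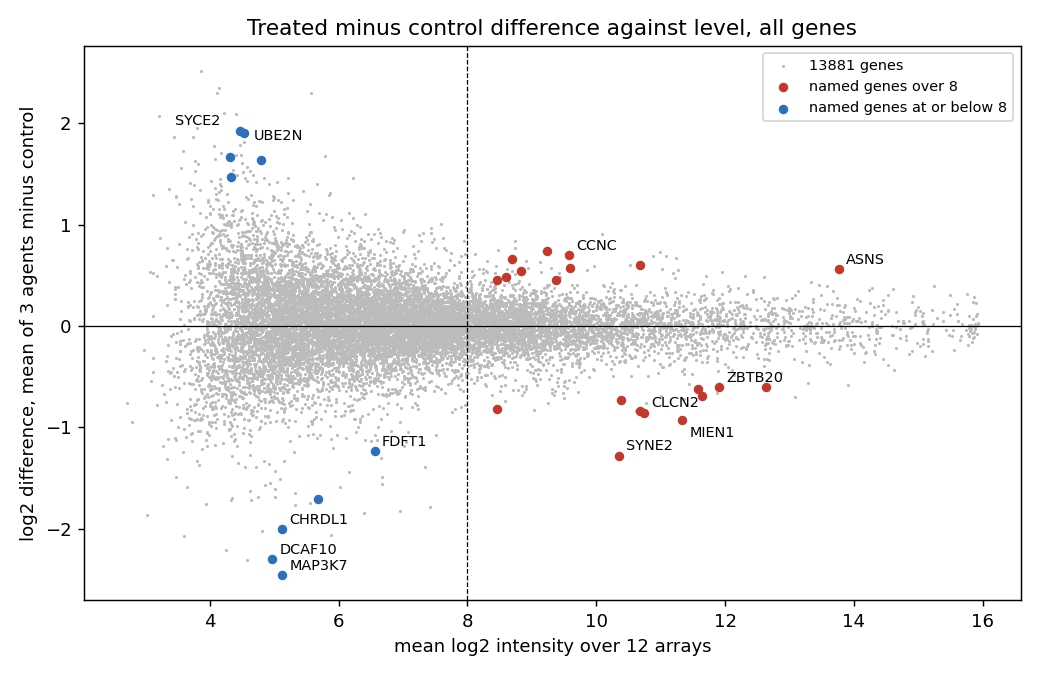
Log2 difference (mean of the 3 agents minus control) of each of 13881 genes against its mean log2 intensity over 12 arrays, with the 20 genes over 8 of smallest p in red and the 10 other genes of smallest p in blue (5 or 10 in each direction). The dashed line marks log2 8. Differences spread widely at low intensity, and among bright genes SYNE2 (−1.28) lies farthest from 0.

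In 28 bright genes (0.717%) every treated array lay beyond every control array, 16 higher (0.41%) and 12 lower (0.307%). Over all genes it was 110 (0.792%), 50 higher (0.36%) and 60 lower (0.432%). The share in bright genes was near the one over all genes. Some genes would separate in this way by chance, and that share was not worked out. Separation on 9 of 9 treated arrays is therefore a description. SYNE2 encodes nesprin-2, a giant protein that ties the nuclear envelope to the cytoskeleton. Its control arrays read 11.22, 11.20 and 11.53, the glycyrrhizin arrays 9.75, 10.11 and 9.69, the silymarin arrays 10.31, 10.90 and 10.36, and the ursodeoxycholic acid arrays 10.10, 9.45 and 9.65. No treated array overlapped control, silymarin lay between control and the other agents, and those agents overlapped each other. The mean difference was −1.28 (SE 0.21, 95% interval −1.73 to −0.83), with an adjusted p of 0.243 in limma. Each agent's own difference was −1.47, −0.79 and −1.58 for glycyrrhizin, silymarin and ursodeoxycholic acid.

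ZBTB20, a zinc finger repressor that silences AFP in adult liver, was low to a similar extent with each agent. It read 12.41, 12.26 and 12.41 in control, 11.78, 11.58 and 11.67 with glycyrrhizin, 12.01, 11.84 and 11.72 with silymarin, and 11.76, 11.84 and 11.65 with ursodeoxycholic acid. All 9 treated arrays were lower, and the treated groups overlapped each other. The difference was −0.60 (SE 0.15, adjusted p = 0.718), made of −0.69, −0.51 and −0.61 with the agents in the same order. The secreted cytokine IL17B read 8.80, 9.31 and 9.11 in control and 7.89 to 8.54 on treated arrays with a treated median of 8.17. Its own differences were −0.79, −0.78 and −0.88, and the mean was −0.82 (SE 0.19, adjusted p = 0.708). ASPM, which organizes the mitotic spindle poles, read 10.76, 10.83 and 11.21 in control and 9.61 to 10.50 on treated arrays. Its mean difference was −0.73 (SE 0.20), with −0.93, −0.51 and −0.76 for the agents. None of these passed, and no difference among the agents was called for them.

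On the higher side, ASNS encodes asparagine synthetase, a target of the amino acid response. Control arrays read 13.53, 13.55 and 12.97, glycyrrhizin arrays 13.75, 13.78 and 13.66, silymarin arrays 13.87, 14.35 and 14.30, and ursodeoxycholic acid arrays 13.95, 13.76 and 13.78. All treated arrays were above control, with silymarin highest, and control replicate 3 lay well under the other control arrays. The difference was 0.56 (SE 0.18, adjusted p = 0.998) and 0.37 without control replicate 3. The agents' own values were 0.38, 0.82 and 0.48. TNFAIP3, the inhibitor of NF-kB signalling also called A20, read 7.48, 8.66 and 8.69 in control and 8.73 to 8.99 on treated arrays. Its difference of 0.55 (SE 0.24) became 0.15 without control replicate 1, so 1 control array set most of its size. ATP citrate lyase ACLY, which supplies acetyl-CoA to lipid synthesis, read 10.74, 10.81 and 10.95 in control and 10.96 to 11.37 on treated arrays. The acid ceramidase ASAH1 of the lysosome read 11.29, 11.27 and 11.31 in control and 11.45 to 11.79 on treated arrays. Their differences were 0.33 (SE 0.15) and 0.32 (SE 0.14), and neither passed (adjusted p = 0.998 for each). No control array set these last values, which ran from 0.28 to 0.39 for ACLY and from 0.29 to 0.33 for ASAH1 as arrays were left out in turn.

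The upstream sequences of ASNS and TNFAIP3 are shown because each holds a textbook response motif of its gene and both genes were high on 9 of 9 treated arrays. Each stretch is the 250 bases before the transcript start in RefSeq on GRCh38.p14, read 5′ to 3′ in the direction of transcription. The ASNS stretch lies at chr7:97872409-97872658 on the minus strand, with the amino acid response element TGATGAAAC in capitals 68 to 60 bases before the start. For TNFAIP3 it lies at chr6:137867009-137867258 on the plus strand, with matches to a kappa B motif of NF-kB (G 3 times, any 2 bases, T 3 times, C 2 times) in capitals, 67 to 58 and 55 to 46 bases before the start, both on the opposite strand.
ASNS: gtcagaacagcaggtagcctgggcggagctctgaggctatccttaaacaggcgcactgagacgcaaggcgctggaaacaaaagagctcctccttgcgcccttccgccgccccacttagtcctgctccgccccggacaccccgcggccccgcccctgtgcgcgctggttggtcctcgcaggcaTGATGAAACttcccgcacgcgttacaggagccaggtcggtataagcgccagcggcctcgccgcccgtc
TNFAIP3: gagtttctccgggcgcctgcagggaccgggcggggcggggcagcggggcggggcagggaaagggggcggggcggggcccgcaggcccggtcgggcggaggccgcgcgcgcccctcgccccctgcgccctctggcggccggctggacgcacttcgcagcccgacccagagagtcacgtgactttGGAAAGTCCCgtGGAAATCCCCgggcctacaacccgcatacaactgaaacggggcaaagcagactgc
Searched on both strands of the 250 bases before the start, TGATGAAAC occurred in 69 of 35116 RefSeq promoters (0.196%) and the kappa B motif in 608 (1.73%). The second of 2 listed ASNS starts held no TGATGAAAC in its window. A match describes the letters and not the binding of a factor, and whether either response was active was not tested. In the integrated stress and unfolded protein response list 7 of 19 members lay above control in the mean and 12 below. In the list of NF-kB and inflammatory targets these were 6 and 8 of 14.

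Other genes on bright probes with low p-values on the higher side were not separated on every array. They were cyclin C (CCNC, 0.70), the Mediator-associated cyclin, the Pumilio translational repressor PUM2 (0.61), the endosomal recycling factor RAB11FIP5 (0.74), the centriole protein PPP1R35 (0.66), the desmosomal cadherin DSC1 (0.57) and the cAMP-responsive CREM (0.54). Further ones were the pseudogene PSPHP1 (0.48), which may share sequence with its parent gene, the protein-arginine deiminase PADI3 (0.45) and C9orf43 (0.45). Each had 7 or 8 of 9 treated arrays above all control arrays, and limma's adjusted p was 0.932 for CCNC and 0.998 for the rest. Control replicate 1 was the lowest control array for 7 of these genes. Without it RAB11FIP5 differed by 0.41, CREM by 0.30, DSC1 by 0.29 and PADI3 by 0.29. Without control replicate 3 CCNC differed by 0.46. Dimmer second probes differed by 0.11 for PUM2, 0.01 for PPP1R35 and 0.64 for PSPHP1.

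**Figure D2:**
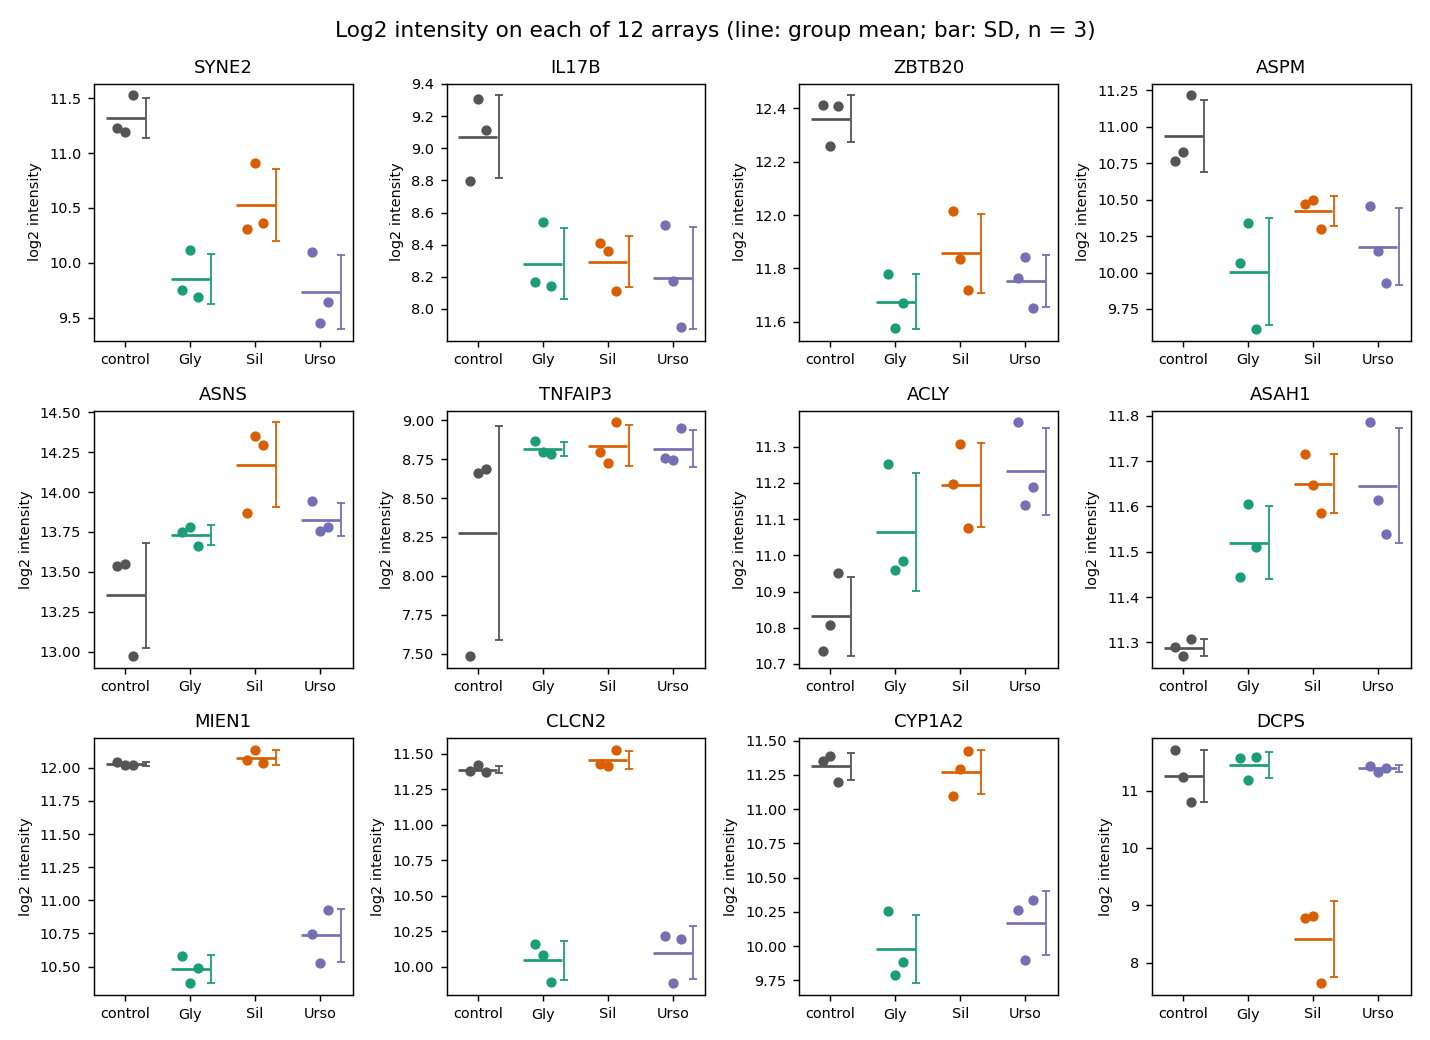
Log2 intensity of 12 genes on each of the 12 arrays (points), with the mean of each group of 3 as a line and the SD as a bar. In the top row all treated arrays are lower, in the middle row all are higher, and in the bottom row silymarin stands apart from the other agents.

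On the lower side the difference of bright genes was often uneven, and was then mostly smallest with silymarin. A gene was called shared where each agent reached at least 0.5 times the mean difference in its direction, carried by 1 agent where that agent held over 66.7% of the sum, and uneven otherwise. Of the 59 bright genes lower at an unadjusted p under 0.05, 15 were shared, 36 uneven, 4 carried by glycyrrhizin and 4 by silymarin. Silymarin had the smallest difference in that direction in 35 of the 36 uneven genes, a share that was not counted over all bright genes. The split was weaker in dim genes. Of 44 uneven lower ones at that threshold, 24 were smallest with silymarin, 9 with glycyrrhizin and 11 with ursodeoxycholic acid. Of the 47 higher bright genes, 35 were shared and 12 uneven. Over all bright genes 14.6% were shared and 21.2% uneven. A low p for the mean favours shared genes by its construction, so these counts are a description.

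MIEN1, which promotes cell migration, was one of these uneven genes. It read 12.04, 12.02 and 12.02 in control and 12.06, 12.14 and 12.03 with silymarin, against 10.58, 10.38 and 10.49 with glycyrrhizin and 10.75, 10.53 and 10.93 with ursodeoxycholic acid. The last 6 arrays lay below all others. The mean difference of −0.93 (SE 0.15, adjusted p = 0.243) joined −1.54, 0.05 and −1.29. Limma's F test of equal agent means, which uses the control arrays only for the spread, gave an adjusted p of 0.0376. The chloride channel CLCN2 read 11.38, 11.42 and 11.37 in control and 11.43, 11.41 and 11.53 with silymarin, with 10.16, 10.08 and 9.89 for glycyrrhizin and 10.22, 9.89 and 10.20 for ursodeoxycholic acid. Its own differences were −1.34, 0.07 and −1.29 (mean −0.86, F test adjusted p = 0.0391). For MIEN1 and CLCN2 the mean of glycyrrhizin and ursodeoxycholic acid alone against control passed, at −1.42 and −1.32 (limma adjusted p = 0.0292 and 0.032). That contrast leaves out the agent already seen near control for these genes, and the adjusted p does not cover this choice. Neither gene passed when glycyrrhizin or ursodeoxycholic acid was left out instead.

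The same pattern of values, without a called difference among agents, was measured for CYP1A2, OAF and CKS1B. The xenobiotic-metabolizing CYP1A2 differed by −1.33, −0.04 and −1.15 from control with glycyrrhizin, silymarin and ursodeoxycholic acid (F test adjusted p = 0.132). Its control arrays read 11.35, 11.39 and 11.20 and its silymarin arrays 11.10, 11.29 and 11.42, so these groups overlapped. OAF differed by −0.94, −0.12 and −0.996 (0.323). CKS1B, a subunit of cyclin-dependent kinases, differed by −0.97, −0.15 and −0.67 (0.431).

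**Figure D3:**
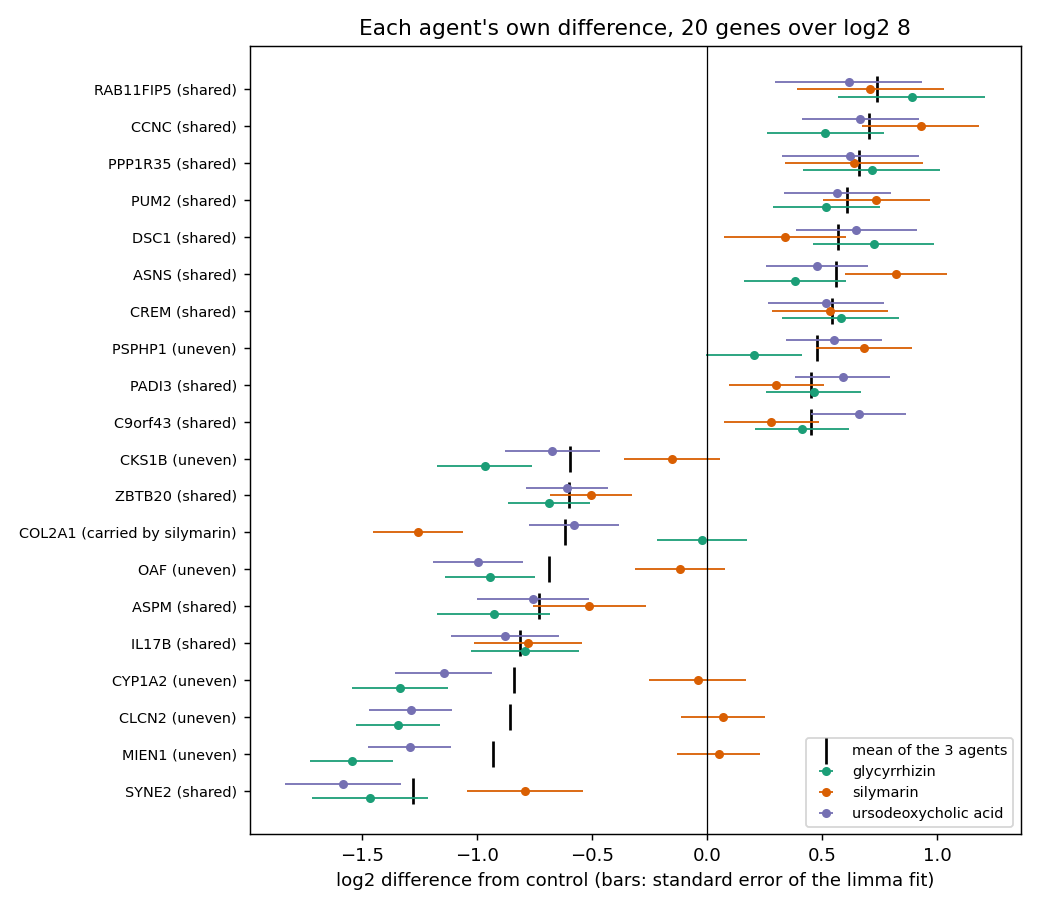
Log2 difference from control of each agent (points, with the standard error of the limma fit) and of the mean of the agents (black bars) for the 20 bright genes with the lowest p-values, 10 in each direction. Points of the 3 agents lie close together for most higher genes, while silymarin lies near 0 for MIEN1 (0.05), CLCN2 (0.07) and CYP1A2 (−0.04).

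In other genes silymarin differed from the other agents in a different way. DCPS, the scavenger enzyme of mRNA caps, read 8.79, 8.81 and 7.65 with silymarin and 10.80 to 11.71 on the other 9 arrays. Its mean difference of −0.84 (SE 0.27) was carried by silymarin, with 0.19, −2.84 and 0.13 for the agents, and became 0.16 without that agent (F test adjusted p = 0.0343). The cartilage collagen COL2A1 differed by −0.02, −1.26 and −0.58 (mean −0.62, F test adjusted p = 0.175), so that it was low with ursodeoxycholic acid too. For CYP1B1, a cytochrome induced through the aryl hydrocarbon receptor, a mean of 0.02 hid opposite values. The glycyrrhizin arrays, at 8.05, 8.23 and 8.06, lay below all control arrays (9.06, 8.71 and 8.73), and the silymarin arrays, at 9.73, 9.91 and 9.65, above them. The F test gave an adjusted p of 0.0391. The kinase HIPK3, with −1.56, 0.40 and −0.93, instead resembled MIEN1. Its silymarin arrays overlapped control and those of the other agents lay below it (F test adjusted p = 0.0685).

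The F test called 6 of 13881 genes (0.0432%): MIEN1, CLCN2, DCPS and CYP1B1 on bright probes, and the dim NCBP1 and SLC22A11. NCBP1, a nuclear cap-binding subunit, differed from control by 0.61, −2.42 and 0.58, and the organic anion transporter SLC22A11 by −0.11, 0.29 and −2.64. Both were chosen after their values were seen. These calls rested on all arrays together. Their number was 0 with a replicate block, and 0 without control replicate 2, without any glycyrrhizin or silymarin array, or without ursodeoxycholic acid replicate 1 or 2. It was 4 without control replicate 1, 2 without control replicate 3 and 3 without ursodeoxycholic acid replicate 3. An unadjusted p under 0.05 was reached by 1102 genes (7.94%) and by 428 bright genes (11%). In 310 of these 428 silymarin lay farthest from the other agents, in 102 glycyrrhizin and in 16 ursodeoxycholic acid. Over all bright genes, whatever their p, silymarin lay farthest in 44.6%, glycyrrhizin in 32% and ursodeoxycholic acid in 23.4%. These figures rested in part on single arrays. The 310 became 160 without silymarin replicate 2, 204 without silymarin replicate 1 and 204 without glycyrrhizin replicate 3, and the 428 became 245, 279 and 274. Silymarin's share of such genes was lowest, at 48%, without ursodeoxycholic acid replicate 3 and highest, at 82.4%, without ursodeoxycholic acid replicate 1. The latter array and silymarin replicate 2 had the lowest median correlation with the other arrays (r = 0.923 and 0.925 across genes, which are not independent replicates), against 0.938 to 0.95 for the rest.

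The lowest p-values of the whole comparison belonged to dim genes, whose differences were shared by all 3 agents. CHRDL1, a secreted antagonist of bone morphogenetic proteins, read 6.02, 6.46 and 7.37 in control, 3.98, 4.58 and 4.47 with glycyrrhizin, 4.46, 4.82 and 4.86 with silymarin and 4.85, 4.86 and 4.65 with ursodeoxycholic acid. All treated arrays lay below all control arrays, and the agents overlapped each other. The difference was −2.0 (SE 0.26, 95% interval −2.58 to −1.42, adjusted p = 0.0849). SYCE2, of the meiotic synaptonemal complex, read 2.42, 3.48 and 3.17 in control and 4.52 to 5.63 on treated arrays, a difference of 1.93 (SE 0.25, adjusted p = 0.0849). Both values shrink when an offset of 50 is added to the intensities before the log, to −1.01 and 0.48.

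FDFT1, the squalene synthase at the branch towards cholesterol, lay closest of the named dim genes to the median level. Control arrays read 7.16, 7.48 and 7.81, glycyrrhizin arrays 6.67, 5.79 and 6.13, silymarin arrays 6.42, 6.71 and 6.11, and ursodeoxycholic acid arrays 6.34, 6.02 and 6.04. All 9 treated arrays were lower. The difference was −1.23 (SE 0.23, adjusted p = 0.359), with −1.28, −1.07 and −1.34 for the agents. The bicarbonate transporter SLC4A8 (−1.71), the ubiquitin ligase receptor DCAF10 (−2.30) and the kinase MAP3K7 (−2.46), also called TAK1, were likewise below control on 9 of 9 arrays. A second probe of MAP3K7 differed by 0.42, in the opposite direction. The control arrays of MAP3K7 ran from 6.17 to 8.41, and without control replicate 3 its difference was −1.73. On the higher side stood the small GTPase RHOJ (1.67), the matrix protein tenascin C (TNC, 1.47), the ubiquitin-conjugating enzyme UBE2N (1.91) and the cadherin CDH22 (1.64), each above control on 9 of 9 arrays. Control replicate 1 was the lowest control array for RHOJ, UBE2N and CDH22, and without it they differed by 1.35, 1.34 and 1.18. None of these genes passed (adjusted p from 0.257 to 0.445).

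The 30 lists of liver metabolism, stress, growth, cell machinery and cell type markers named 542 genes, of which 407 were measured and 154 were bright. At an unadjusted p under 0.05, 10 of the 407 were higher and 11 lower, beside 2.54% and 1.72% of all genes, and none passed the adjusted threshold. All 9 treated arrays were above control for 5 of the 407, ASNS, TNFAIP3, ACLY, ASAH1 and the complex III subunit UQCRC2 (0.15). They were below it for 3, FDFT1, TF (−0.67) and the cytochrome oxidase subunit COX6C (−0.33). Over all genes these shares were 0.36% higher and 0.432% lower. The median of the mean difference over all genes was 0.01, and 51.1% of all genes lay above control in the mean, 52.5% with glycyrrhizin, 52.3% with silymarin and 52.3% with ursodeoxycholic acid. In 13 lists the median over all measured members kept its sign under every setting tried, and in the other 17 it turned under at least 1, so that no direction is given for the latter. Among the 13, the median of 2 lists, G2 and mitosis and the immediate early genes, moved by less than 1.5 times whichever array was left out. The other 11 medians moved by more, and their weakest value is given with each.

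Genes of G2 and mitosis had the lowest median, −0.23 over 15 measured members, with 13 below control and 2 above. The medians were −0.11 with glycyrrhizin, −0.31 with silymarin and −0.14 with ursodeoxycholic acid, beside 0.02 over all genes for each. The kinesin KIF20A (−0.23) and the kinetochore protein CENPF (−0.32) were its bright members with the smallest p. The brightest member, cyclin CCNA2, differed by 0.14, −0.64 and −0.09, and was chosen after its values were seen. The log2 of the summed intensity of the list was 14.34 to 14.50 in control, 14.42 to 14.58 with glycyrrhizin, 13.76 to 13.96 with silymarin and 14.24 to 14.35 with ursodeoxycholic acid. On that scale glycyrrhizin was not below control, and all silymarin arrays were. Such a sum is weighted towards the brightest member, CCNA2 at log2 13.79, so it is no separate view of the 15 genes.

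Immediate early and G1 genes had a median of −0.11 (10 of 15 below), with −0.17 (glycyrrhizin), −0.008 (silymarin) and −0.14 (ursodeoxycholic acid). Over its 9 bright members the median was 0.05, the opposite sign. The early growth response factor EGR3 was measured higher by 0.28, and by 0.14 without control replicate 3. DNA replication genes had a median of −0.13 (12 of 19 below), which was −0.033 without glycyrrhizin replicate 1 and 0.03 over its bright members. The sliding clamp PCNA differed by −0.54, 0.28 and −0.46 with the agents.

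Several lists above control in the mean were not so with every agent. The apolipoprotein and cholesterol efflux list had a median of 0.19 (10 of 14 above), but of −0.07 with glycyrrhizin, against 0.25 with silymarin and 0.40 with ursodeoxycholic acid. It was 0.099 without control replicate 1. Its bright members differed little, the efflux pump ABCA1 by 0.13 and APOB by −0.08. Bile acid genes had a median of 0.11 (9 of 16 above), made of 0.25 with glycyrrhizin, −0.002 with silymarin and −0.03 with ursodeoxycholic acid, and of 0.023 without control replicate 3. In that list the receptor FGFR4 differed by 0.19 and the repressor NR0B2, known as SHP, by 0.17. All 10 measured glucocorticoid response genes lay above control in the mean, with a median of 0.14, but 6 did with glycyrrhizin, 8 with silymarin and 4 with ursodeoxycholic acid. Their median was 0.079 without ursodeoxycholic acid replicate 1. The phosphatase DUSP1 (−0.35, 0.91 and −0.06) and KLF9 (−0.19, 0.46 and −0.07) lay above control with silymarin alone.

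The median of the interferon-induced genes was above control with each agent, at 0.15, 0.23 and 0.06, and at 0.15 in the mean (13 of 16 above). Members above control were 9 of 16 with glycyrrhizin, 13 with silymarin and 11 with ursodeoxycholic acid, beside 52.5%, 52.3% and 52.3% of all genes. Only 2 of the 16 were bright. Without control replicate 1 the median in the mean was 0.041. The interferon-activated transcription factors IRF1 and STAT2 differed by 0.28 and 0.22. Fatty acid oxidation genes had medians of 0.15, 0.02 and 0.16, and 0.05 in the mean (9 of 13 above), or 0.016 without control replicate 1. The lipid droplet protein PLIN2 differed by 0.30 and the receptor PPARA by −0.22.

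Fatty acid synthesis genes had a median of −0.09 (9 of 12 below), with −0.15, −0.13 and −0.02 for the agents, and of −0.018 without control replicate 3. Of its 4 bright members 3 were below control, THRSP at −0.30 among them, and ACLY was above it. The integrated stress and unfolded protein response list had a median of −0.10 (12 of 19 below), with −0.01, 0.07 and −0.002 for the agents, and of −0.027 without control replicate 1. Of its 10 bright members 8 were below control, while ASNS and XBP1 (0.26), a factor of the unfolded protein response, were measured higher. Its median was thus near 0 with 2 of the agents and above 0 with silymarin.

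Among the marker lists, hepatocyte identity had a median of −0.08 (10 of 17 below), with −0.06, 0.09 and −0.15 for the agents, and of −0.022 without control replicate 3. The neuroblast markers had −0.07 in the mean (9 of 16 below), but 0.04 with glycyrrhizin and 0.09 with ursodeoxycholic acid (10 of 16 above with each), against −0.07 with silymarin. Without glycyrrhizin replicate 3 their median was −0.004. In that list STMN2 differed by 0.69, or by 0.24 without control replicate 1, and the neurofilament NEFM by −0.42. Leukocyte markers had 0.09 (6 of 7 above), with 0.24, −0.07 and 0.07 for the agents and 0.037 without ursodeoxycholic acid replicate 1. No marker list passed a test for any of its members, and their part in the differences above was not tested.

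**Figure D4:**
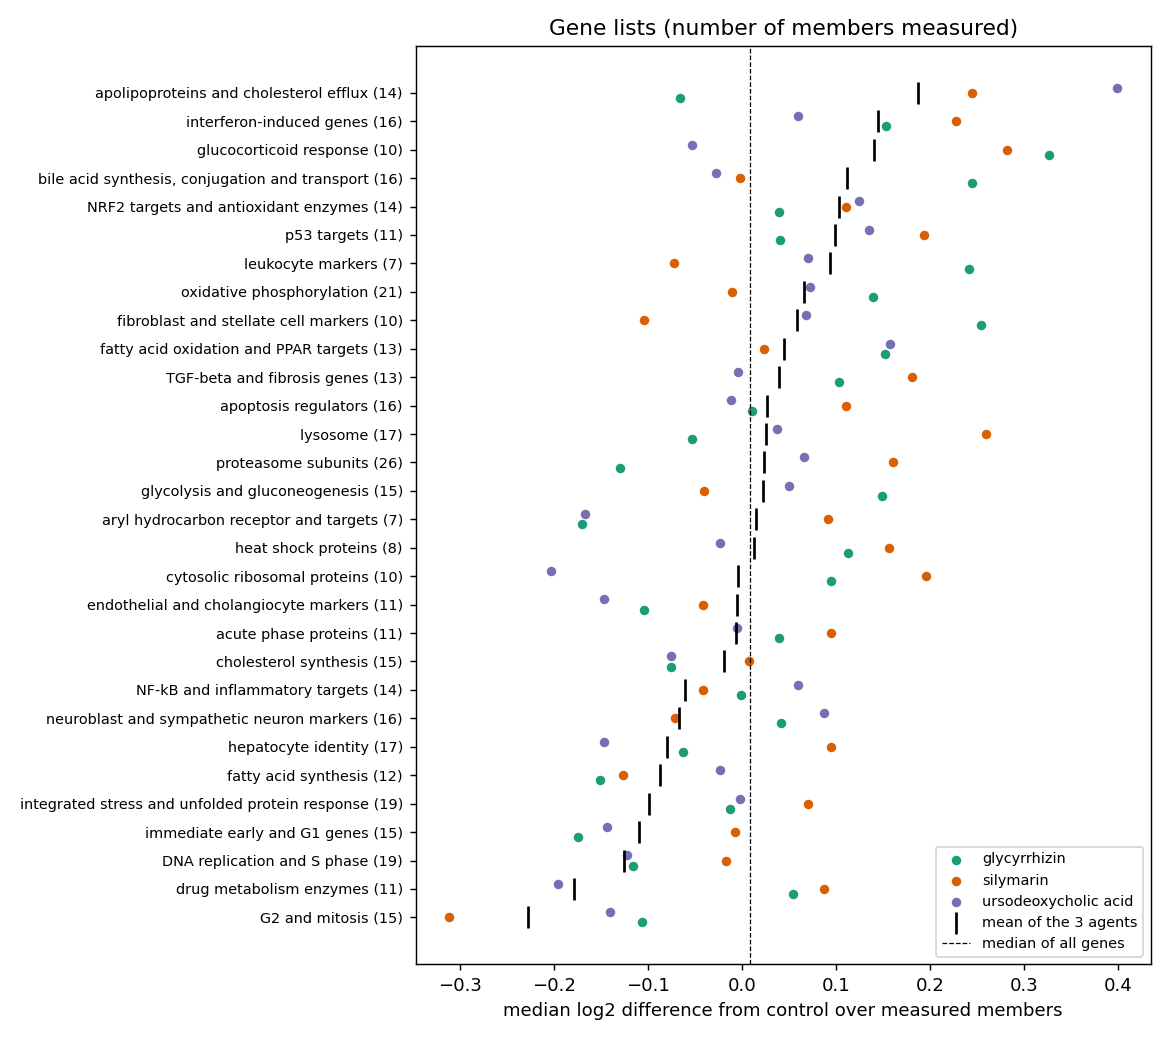
Median log2 difference from control over the measured members of 30 gene lists, for each agent (points) and for the mean of the 3 agents (black bars), with the number of members in parentheses and the median of all genes as a dashed line. G2 and mitosis has the lowest median of the mean (−0.23), with silymarin at −0.31.

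In lists without a stable direction, members carried by some agents stood beside members near control. Among proteasome subunits PSMD14 differed by −1.05, 0.12 and −0.93 and PSMB5 by −1.03, 0.33 and −0.25 with glycyrrhizin, silymarin and ursodeoxycholic acid, so that both were low with glycyrrhizin and not with silymarin. Their F tests were not called (adjusted p = 0.376 and 0.19). In glycolysis the liver-type phosphofructokinase PFKL differed by 0.73, −0.24 and 0.42, and the isomerase GPI by 0.60, 0.61 and 0.35. A second bright probe of PFKL differed by 0.02 in the mean of the agents, against 0.30 for the probe used. The adhesion receptor ICAM1 of the NF-kB list averaged 0.75 above control, but its control arrays read 6.30, 8.62 and 8.82, and without control replicate 1 the difference was −0.06. In cholesterol synthesis, squalene epoxidase SQLE differed by −0.08, 0.43 and 0.15 and the demethylase CYP51A1 by −0.002, −0.11 and 0.03. All silymarin arrays of SQLE lay above control. The antioxidant enzyme CAT (0.12), the drug metabolism enzymes GSTP1 (0.16) and CYP2C19 (−0.07), and the chaperones HSPD1 (0.14) and HSPH1 (0.14) did not pass in the mean. TXN and EGR1 are not described, since their probes read near the top of the intensity range.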

How the data were processed

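The deposited values were linear intensities from 1 to 65221, with 27561 probes read on every array. limma is named in the submitters' processing notes, without steps or version. At a given rank the 12 arrays spread by a median of 1.22%, so the values had been brought to 1 distribution before deposit. By the platform annotation 15650 probes named 1 gene, 11911 named none and 0 more than 1; 2355 probes carried older symbols that were updated, and 68 with several possible updates kept theirs. The brightest probe stood for each of 13881 genes.

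Log2 values were fitted with limma 3.58.1 in R 4.3.3, with 1 mean per group over all 12 arrays (8 residual and 2.8 prior degrees of freedom). The spread was estimated on all probes and two-sided p-values took the Benjamini-Hochberg adjustment across 13881 genes. On 5 simulated sets with 200 genes changed by all 3 agents, 34.6% of 2-fold and 78.4% of 4-fold changes were found over 13881 genes, and 6% of the calls were false.

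Named genes were, for the mean of the agents, the 10 bright and 5 dim genes with the smallest p in each direction, the 5 bright genes with the smallest p among agents, up to 2 members of each list and the 5 brightest hepatocyte genes. AFP, TF, TH, ISL1, CCNA2, NCBP1 and SLC22A11 were named after their values were seen. The comparison, its genes and the lists were chosen with earlier results of these data known. Replicate numbers did not pair the arrays: deviations from group means correlated above 0.1 in 4 of 18 same-numbered pairs (r from -0.189 to 0.153). Alternatives covered normalization, probe choice, offsets, variance estimation, array weights, a replicate block, agents and arrays left out.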

Additional observations from a re-analysis of the deposited data

Results flagged for a closer look

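For 4 bright genes the agents differed from each other by the F test of limma. The adjusted p was 0.0343 for DCPS (0.19, -2.84 and 0.13 from control with glycyrrhizin, silymarin and ursodeoxycholic acid), 0.0376 for MIEN1, 0.0391 for CLCN2 and 0.0391 for CYP1B1 (-0.72, 0.93 and -0.17).

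For 3 list members all arrays of 1 agent lay above control and all arrays of another below it, without a called F test. The share of such genes over all genes was not counted, so these 3 are a description. The adjusted p of that test was 0.19 for the proteasome subunit PSMB5, 0.252 for the phosphofructokinase PFKL and 0.568 for the ribosomal protein RPL30, whose mean difference was -0.04. A second bright probe of PFKL differed by 0.02 in the mean, against 0.30, and a dim second probe of RPL30 by -0.44. The RPL30 probe used read 15.15 to 15.76 on treated arrays, at the upper end of the intensity range.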

How the results depend on the processing

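The number of genes called for the mean of the agents was 0, and became 3 with an offset of 50, 3 with a variance trend and 3 over bright genes alone, where both the number of tests and the estimate of the spread changed; these were CLCN2, MIEN1 and SYNE2, all lower, each time. It was 2 with the 9 treated arrays as 1 group (CHRDL1 and SYCE2), 2 for the agents other than silymarin (CLCN2 and MIEN1), and 0 to 0 with single arrays left out. The adjusted p ran over the alternatives from 0.00997 to 0.592 for SYNE2, 0.00505 to 1 for MIEN1, 0.00997 to 1 for CLCN2, 0.036 to 0.281 for CHRDL1 and 0.036 to 0.494 for SYCE2. The 6 genes differing among agents became 25 with the offset of 50, 85 with the variance trend, 93 over bright genes and 0 to 4 with single arrays left out. With a replicate block, although the numbers gave no sign of pairing, that count was 0, and so were those of the mean and of each agent. For glycyrrhizin alone 0 became 1 with the mean of all probes of a gene, 2 and 7 with offsets of 16 and 50, 17 with the variance trend, 3 with array weights, 12 over bright genes and 1 (MIEN1) with the spread estimated on the named genes, an alternative added after seeing the data. For silymarin it became 1, 2, 4, 1 and 7 with offsets of 16 and 50, the variance trend, array weights and bright genes. For ursodeoxycholic acid it became 6 with the offset of 50, 6 with the trend, 5 over bright genes and 0 to 2 with single arrays left out (FREM1 and KLHL40 without ursodeoxycholic acid replicate 3). The 110 genes separated on all arrays were 28, 37 and 22 among genes over 8, 7 and 9, and 133 to 514 with single arrays left out, where fewer arrays must separate. The 428 bright genes with an F test p under 0.05 became 744 with the offset of 50, 808 with the trend, 771 over bright genes and 245 to 473 with single arrays left out. The 310 of them with silymarin apart became 490, 536, 508 and 160 to 370.

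Some differences turned sign, among them the larger ones of DCPS (-0.84) and ICAM1 (0.75). For the agents other than silymarin the values were 0.16 for DCPS, -0.44 for CYP1B1, 0.057 for APOB, 0.014 for CYP51A1, -0.016 for BBC3, -0.047 for ABCA1, -0.20 for DUSP1 and -0.13 for KLF9. Without glycyrrhizin they were -0.024 for CD14, -0.12 for COL1A1, 0.04 for PSMB5 and 0.078 for RPL30, and without ursodeoxycholic acid -0.088 for MS4A1, 0.037 for MMP2 and -0.17 for TTR. The mean of all probes gave -0.091 for TXN, -0.004 for HSPH1, -0.57 for SMAD2, 0.14 for CYCS and -0.19 for RPL10, and array weights -0.028 for COL1A1. With single arrays left out the range was -0.048 to 0.13 for CYP1B1, -0.26 to 0.082 for APOB, -0.12 to 0.29 for CD14, -0.06 to 0.36 for MS4A1, -0.056 to 0.33 for CDH5, -0.28 to 0.012 for TEK, -0.26 to 0.004 for VIM, -0.14 to 0.19 for COL1A1 and -0.12 to 0.035 for CYP51A1. It was -0.005 to 0.16 for TXN, -0.088 to 0.27 for HSPH1, -0.061 to 1.20 for ICAM1, -0.16 to 0.05 for MMP2, -0.026 to 0.18 for BBC3, -0.024 to 0.32 for RFC4, -0.10 to 0.028 for RPL30, -0.14 to 0.17 for KLF9, -0.21 to 0.26 for TTR and -0.035 to 0.43 for FOXA2. The causes were not tested. Of the other values of named genes 2173 kept direction and call and 13 became called; 48 of 90 named genes moved by over 1.5 times without 1 array.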
